A study of Mus musculus with 12 samples.

Results

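The AP-1, ATF3 and BATF factors are 10 genes for basic leucine zipper transcription factors: Fos, Fosb, Fosl1, Fosl2, Jun, Junb, Jund, Atf3, Batf and Batf3. They were found by gene name among 35482 named genes on a mouse array, and the probe with the highest mean signal over all arrays stood for each gene. All 10 passed the filter for detection that left 20469 genes in the tests. The study measured total RNA (200 ng) from bone marrow derived macrophages on 12 single-colour Agilent arrays, 3 in each of 4 groups. Recovered macrophages received lipopolysaccharide (LPS, the endotoxin of Gram-negative bacteria) for 8 h, rested for 88 h and received LPS again for 4 h. The general protocol in the labels gives that rest as 2 to 4 days. Tolerant macrophages had the same exposures with a rest of 16 h. Acute macrophages received LPS for 4 h and nothing before, and untreated macrophages received none. Marrow of female C57BL/6 mice, between 6 and 8 weeks of age, was differentiated for 7 days in growth medium conditioned by L929 cells. The replicates were independent experiments per the design text. Whether each used other animals is not stated, so the p-values measure the spread between these arrays.

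AP-1 is a family of dimers in which a Jun protein pairs with another Jun, a Fos or an ATF or BATF protein through a leucine zipper, and the pair binds short palindromic DNA motifs. In macrophages, LPS acts through Toll-like receptor and MAP kinase signalling to raise the synthesis and activity of several of these proteins, often within minutes to hours. ATF3 is known in mouse macrophages as an LPS-induced repressor of cytokine genes, and BATF and BATF3 lack an activation domain and bind DNA with Jun proteins and interferon regulatory factors.

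Levels are given as log2 normalized intensity, that is log2 of the processed spot signal after each array was set to the same 75th percentile, so a difference of 1 is a 2-fold difference in signal. A gene was called changed where limma's moderated test gave a Benjamini-Hochberg adjusted p under 0.05 over all tested genes. Levels of different probes are not comparable with each other. In bulk RNA, fewer expressing cells and less RNA per cell cannot be told apart.

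Over the 4 groups together, 8 of 10 factors differed by limma's F test, with adjusted p of 2.44e-05 (Junb) to 0.0135 (Batf), against 40.1% of all genes. Fosb and Jund missed the threshold (adjusted p = 0.184 and 0.0932). Junb was higher and Batf3 lower after LPS in every exposed group. Atf3 was highest in acute cells. The highest Fos and Batf levels were on the tolerant arrays, and Jun was lower in both restimulated groups than in untreated cells.

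**Figure D1:**
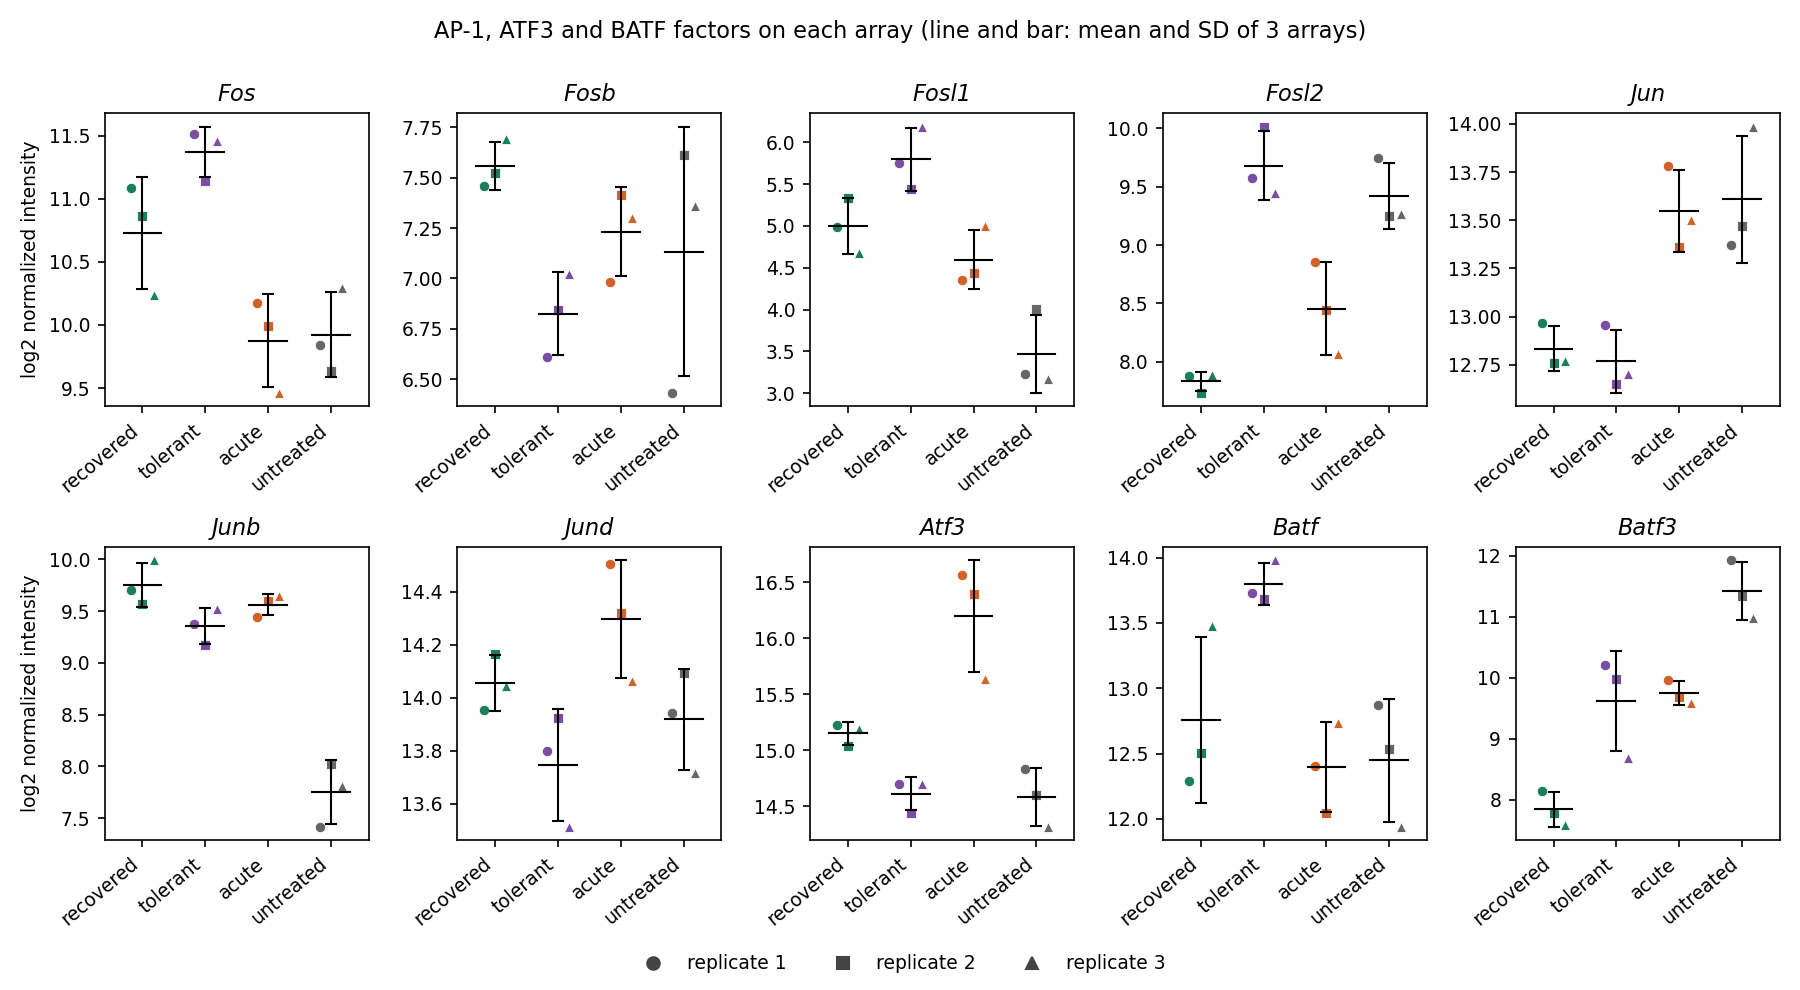
Each panel plots log2 normalized intensity of 1 gene on the 12 arrays by group, with the mean and SD of the 3 arrays as line and bar and the marker shape giving the replicate; each panel has its own y axis. Junb stands higher in all exposed groups, Atf3 peaks in acute macrophages, Fos and Batf peak in tolerant macrophages, and Batf3 is lowest in recovered macrophages.

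The Jun proteins are the partners that every classical AP-1 dimer needs. Junb, a Jun protein with a weaker activation domain than Jun itself, had levels of 9.70, 9.57 and 9.99 in recovered, 9.37, 9.17 and 9.52 in tolerant, 9.44, 9.60 and 9.64 in acute and 7.42, 8.02 and 7.81 in untreated macrophages (replicates 1, 2 and 3). All 9 exposed arrays lay above all 3 untreated ones. The differences from untreated cells were 2.00 ± 0.18 in recovered, 1.60 ± 0.18 in tolerant and 1.81 ± 0.18 in acute cells (log2 ± SE). These correspond to 4.01-fold, 3.04-fold and 3.51-fold higher signal, with adjusted p of 8.95e-06, 0.000111 and 2.04e-05. Junb passed no test between exposed groups: recovered minus tolerant was 0.40 (95% interval -0.0045 to 0.80), recovered minus acute 0.19 (-0.21 to 0.60) and tolerant minus acute -0.21 (-0.61 to 0.20). The probe that measured Junb lies at base 677 of its transcript (mm9, chr8:87501881-87501940, minus strand) and is shown because the increase called in all 3 exposed groups rests on it.
Junb probe: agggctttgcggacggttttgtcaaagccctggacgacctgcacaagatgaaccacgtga

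Jun, the strongest activator of the Jun proteins, showed another order. Its levels were 12.97, 12.76 and 12.77 in recovered, 12.96, 12.65 and 12.70 in tolerant, 13.78, 13.36 and 13.50 in acute and 13.37, 13.47 and 13.99 in untreated macrophages. All 6 arrays of restimulated cells lay below all 6 of acute and untreated cells. Jun fell by 0.78 ± 0.19 in recovered (adjusted p = 0.00725) and fell by 0.84 ± 0.19 in tolerant cells (adjusted p = 0.00809), each against untreated cells, which is 1.71-fold and 1.79-fold lower. Without the arrays of the later scan day these differences were -0.56 (adjusted p = 0.0619) and -0.62 (adjusted p = 0.0623). Against acute cells, tolerant cells were at -0.78 ± 0.19 (1.72-fold lower, adjusted p = 0.0121), a call lost without tolerant replicate 2 (-0.72, adjusted p = 0.0502). Recovered minus acute was -0.72 ± 0.19 and missed the threshold (adjusted p = 0.0814). This difference passed with the experiment, taken from the replicate number, as a block (adjusted p = 0.0265). It also passed without untreated replicate 3 (adjusted p = 0.0479), and its adjusted p ranged from 0.0265 to 0.293 over the alternatives. Acute minus untreated was -0.06 (95% interval -0.47 to 0.35).

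Jund, a broadly expressed Jun protein that is known to restrain proliferation in fibroblasts, had small differences between groups. Its levels were 13.95, 14.17 and 14.05 in recovered, 13.80, 13.92 and 13.51 in tolerant, 14.51, 14.32 and 14.06 in acute and 13.94, 14.10 and 13.72 in untreated macrophages. With all arrays and no block, Jund was called in tolerant against acute cells, -0.55 ± 0.17 (1.46-fold lower, adjusted p = 0.0382), with groups that did not overlap. That call was lost without any 1 of 7 arrays (acute replicates 1 and 2, tolerant replicates 1 and 3 and each recovered replicate), where the difference was -0.58 to -0.44 and the adjusted p 0.05 to 0.126, and under quantile normalization (-0.38, adjusted p = 0.0686). Tolerant minus untreated was -0.17 ± 0.17 (adjusted p = 0.555), but was called lower under quantile normalization (-0.47, adjusted p = 0.0314), the same after normexp (-0.47, adjusted p = 0.0166) and by the authors' values (-0.52, adjusted p = 0.0174), with an adjusted p of 0.0166 to 0.876 over the alternatives. Acute minus untreated was 0.38 ± 0.17 (adjusted p = 0.127, and 0.0277 with the experiment as a block), and its sign turned under quantile normalization (-0.09).

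The Fos proteins cannot pair with each other and depend on a Jun partner. Fos, the classical immediate early gene, is known to peak within the first hour after LPS, before the 4 h measured here. Its levels were 11.09, 10.86 and 10.24 in recovered, 11.51, 11.14 and 11.46 in tolerant, 10.17, 9.99 and 9.46 in acute and 9.84, 9.63 and 10.29 in untreated macrophages. The tolerant arrays lay above every array of the other groups. Tolerant cells exceeded acute cells by 1.50 ± 0.27 (2.82-fold, adjusted p = 0.0024) and untreated cells by 1.45 ± 0.27 (2.73-fold, adjusted p = 0.00256), while acute minus untreated was -0.05 (95% interval -0.63 to 0.54).

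In recovered cells Fos took a middle place. It exceeded untreated cells by 0.81 ± 0.27 (1.75-fold, adjusted p = 0.0345), although recovered replicate 3 lay just below untreated replicate 3. The call was lost without untreated replicate 1 (0.77, adjusted p = 0.0926), untreated replicate 2 (0.66, 0.121), recovered replicate 1 (0.63, 0.133) or recovered replicate 2 (0.74, 0.097), and over all alternatives the adjusted p ranged from 0.00219 to 0.133. On slide 3 the Fos difference was -0.06 and on slide 2 it was 1.34. Recovered minus tolerant was -0.64 ± 0.27 (adjusted p = 0.107) and recovered minus acute 0.85 ± 0.27 (adjusted p = 0.148), both with groups that did not overlap. The Fos probe was printed on 10 spots of each array, whose SD within an array was 0.03 to 0.08, small beside the SD of 0.20 to 0.44 between replicates.

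Fosb, another immediate early Fos protein, had levels of 7.46, 7.52 and 7.69 in recovered, 6.61, 6.84 and 7.02 in tolerant, 6.98, 7.41 and 7.30 in acute and 6.43, 7.61 and 7.36 in untreated macrophages. Untreated replicate 1 stood apart from the other untreated arrays, which gave this group an SD of 0.62. Fosb was called in none of the 6 comparisons. Recovered minus tolerant, where the groups did not overlap, was 0.73 ± 0.27 (1.66-fold, adjusted p = 0.0733), and passed with the experiment as a block (adjusted p = 0.0121). Without untreated replicate 1 it passed too (adjusted p = 0.0132), as did tolerant minus untreated (-0.66, adjusted p = 0.0367, against -0.31 and 0.491 with all arrays). Over all alternatives the adjusted p ranged from 0.0121 to 0.21 for recovered against tolerant and from 0.0367 to 0.914 for tolerant against untreated cells.

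Fosl1, the Fos-related protein also called Fra-1, was dim. It was well above background on 2 of 3 recovered, 3 of 3 tolerant, 2 of 3 acute and 0 of 3 untreated arrays. Its levels were 4.99, 5.33 and 4.67 in recovered, 5.76, 5.44 and 6.19 in tolerant, 4.36, 4.44 and 4.998 in acute and 3.23, 4.01 and 3.18 in untreated macrophages. All exposed arrays lay above all untreated ones. The untreated arrays give only an upper bound, set at the lowest signal well above background on each array. With that bound and the main scaling, Fosl1 was at least 3.82-fold higher in tolerant cells. The same bound gave 2.2-fold in recovered and 1.67-fold in acute cells, but their means include an array not well above background. The adjusted p values belong to the differences as measured. These were 1.53 in recovered (0.00159), 2.32 in tolerant (0.000196) and 1.13 in acute cells (0.0114). The acute call was lost under normexp background correction (0.32, adjusted p = 0.114), the same with quantile normalization (0.18, adjusted p = 0.256), the authors' values (0.48, adjusted p = 0.0529) and without the later scan day (0.78, adjusted p = 0.073). Its adjusted p over all alternatives ran from 0.00461 to 0.256. The recovered call was lost under normexp with quantile normalization (0.23, adjusted p = 0.131; 0.000888 to 0.131 over the alternatives). The tolerant call held under each alternative, though its difference, 2.32 with all arrays, was as low as 0.66.

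Among exposed groups Fosl1 was highest in tolerant cells. Tolerant exceeded acute cells by 1.20 ± 0.29 (2.29-fold, adjusted p = 0.0122), a call lost under normexp background correction (0.39, adjusted p = 0.0687). Recovered minus tolerant was -0.80 ± 0.29 (adjusted p = 0.0717, and 0.0494 with the experiment as a block) and was called under 6 alternatives, with an adjusted p of 0.0041 to 0.385 over the alternatives.

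Fosl2, also called Fra-2 and known as a longer-lived Fos protein, was measured by a pair of probes that went opposite ways against untreated cells. The brighter probe, at base 5726 of the transcript (mm9, chr5:32460076-32460135, plus strand), gave 7.88, 7.74 and 7.88 in recovered, 9.57, 10.01 and 9.45 in tolerant, 8.86, 8.44 and 8.07 in acute and 9.74, 9.25 and 9.27 in untreated macrophages. By this probe recovered cells were lowest on every array, and tolerant and untreated cells overlapped. It fell by 1.59 ± 0.23 in recovered (3-fold lower, adjusted p = 0.000236) and fell by 0.96 ± 0.23 in acute cells (1.95-fold lower, adjusted p = 0.00732) against untreated cells. Tolerant exceeded acute cells by 1.22 ± 0.23 (2.33-fold, adjusted p = 0.00313), and recovered minus tolerant was -1.85 ± 0.23 (3.59-fold lower, adjusted p = 0.000401).

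The other Fosl2 probe, at base 738 (mm9, chr5:32455088-32455147, plus strand), reads without a stop codon in 1 of 3 frames and is shown because its values oppose those of the brighter probe.
Fosl2 probe at base 738: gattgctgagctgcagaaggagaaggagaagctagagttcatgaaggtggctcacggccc

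This probe gave 5.66, 6.68 and 6.04 in recovered, 5.02, 5.60 and 4.79 in tolerant, 4.98, 6.50 and 6.53 in acute and 1.87, 3.74 and 2.51 in untreated macrophages. It was well above background on all 9 exposed arrays and on none of the untreated ones. In a fit over 28056 probes its differences from untreated cells, as measured, passed the test. They were 3.42 in recovered (adjusted p = 0.000372), 2.43 in tolerant (adjusted p = 0.00659) and 3.30 in acute cells (adjusted p = 0.000561). With untreated cells set at the bound used for Fosl1, this probe was at least 4.81-fold, 2.42-fold and 4.41-fold higher in the same groups. Between exposed groups it passed no test: tolerant minus acute was -0.86 ± 0.52 (adjusted p = 0.264) and recovered minus tolerant 0.99 ± 0.52 (adjusted p = 0.198). With the mean of both probes, Fosl2 was higher by 0.92 in recovered (adjusted p = 0.012), 1.35 in tolerant (adjusted p = 0.00238) and 1.17 in acute cells (adjusted p = 0.00342) than in untreated cells, and the calls of tolerant against acute (0.18, adjusted p = 0.631) and recovered against tolerant cells (-0.43, adjusted p = 0.227) were lost. The cause of this disagreement between probes was not tested.

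**Figure D2:**
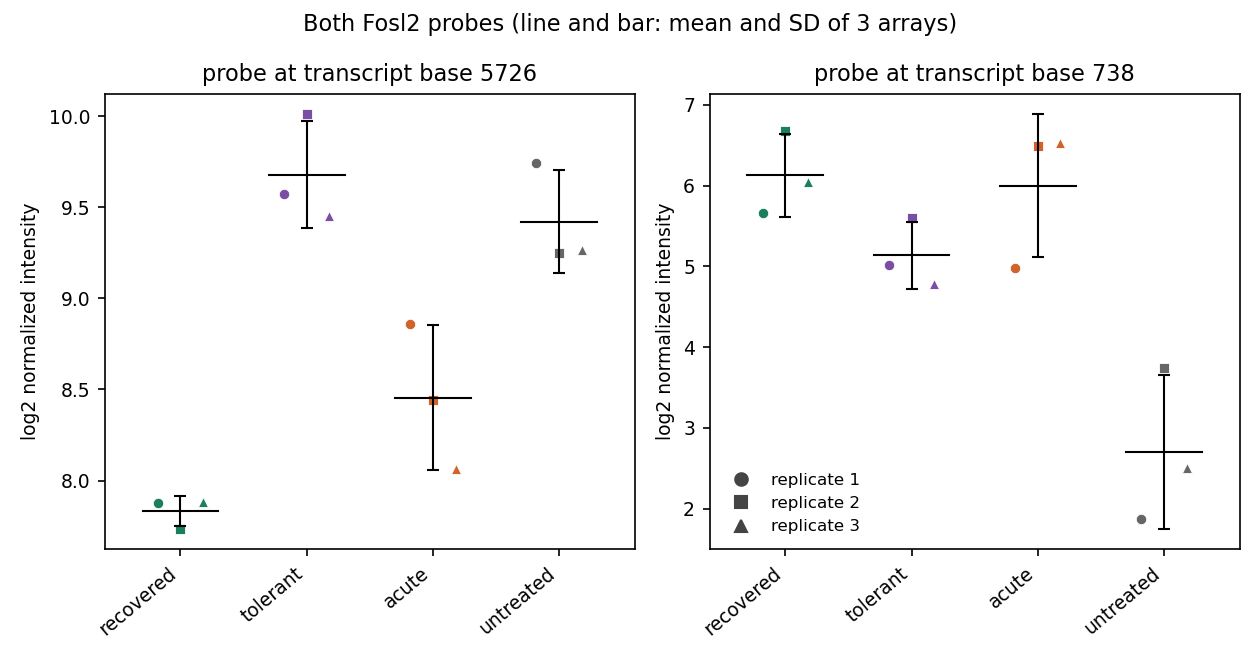
The panels plot log2 normalized intensity of each Fosl2 probe on the 12 arrays by group, with mean and SD of 3 arrays as line and bar. The probe at base 5726 is lowest in recovered and acute macrophages, whereas the probe at base 738 is lowest in untreated macrophages, on arrays where it was not well above background.

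Atf3 had its highest mean in acute cells, then in recovered cells, and its lowest in tolerant and untreated cells. Its levels were 15.22, 15.03 and 15.19 in recovered, 14.70, 14.44 and 14.70 in tolerant, 16.57, 16.40 and 15.63 in acute and 14.83, 14.60 and 14.32 in untreated macrophages. The acute arrays lay above every other array, and tolerant and untreated cells overlapped. Acute exceeded untreated cells by 1.61 ± 0.23 (3.06-fold, adjusted p = 0.000276), and tolerant minus acute was -1.59 ± 0.23 (3-fold lower, adjusted p = 0.000789). Tolerant minus untreated was 0.03 (95% interval -0.48 to 0.54).

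Recovered cells lay between the others. Recovered minus acute was -1.05 ± 0.23 (2.07-fold lower, adjusted p = 0.0477), close to the threshold. That call held without untreated replicate 3 or acute replicate 3 and was lost without any other array, at -1.08 to -0.86 and adjusted p of 0.054 to 0.178. Recovered minus untreated was 0.57 ± 0.23 with groups that did not overlap (adjusted p = 0.0794, and 0.0324 with the experiment as a block), and recovered minus tolerant 0.54 ± 0.23, also without overlap (adjusted p = 0.12, and 0.046 with the block). Without acute replicate 3, which was the lowest acute array, these passed as well (adjusted p = 0.0195 and 0.0394). Over the alternatives the adjusted p ranged from 0.0108 to 0.178 for recovered against acute, 0.0195 to 0.533 for recovered against untreated and 0.0303 to 0.275 for recovered against tolerant cells.

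Batf, known for pairing with Jun proteins and IRF4 in T and B cells, was highest in tolerant cells. Its levels were 12.29, 12.50 and 13.48 in recovered, 13.73, 13.68 and 13.98 in tolerant, 12.41, 12.05 and 12.74 in acute and 12.87, 12.54 and 11.94 in untreated macrophages. Every tolerant array lay above every other array, and the other groups overlapped. Tolerant exceeded acute cells by 1.40 ± 0.32 (2.64-fold, adjusted p = 0.00978) and untreated cells by 1.35 ± 0.32 (2.54-fold, adjusted p = 0.0122), and both calls held under each alternative. Recovered minus tolerant was -1.04 ± 0.32 (2.05-fold lower, adjusted p = 0.0427). This was lost without any 1 of 7 arrays (untreated replicate 2, acute replicate 1, any tolerant replicate, or recovered replicates 1 or 2; -1.10 to -0.81, adjusted p 0.0547 to 0.154), and over all alternatives the adjusted p was 0.00663 to 0.154. Recovered replicate 3 was higher than the other recovered arrays. As for Fos, 10 spots per array carried the Batf probe, with an SD of 0.02 to 0.08 within an array.

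Batf3, the partner of IRF8 that cross-presenting dendritic cells of the mouse need, had the largest difference of the family. Its levels were 8.15, 7.79 and 7.60 in recovered, 10.21, 9.98 and 8.68 in tolerant, 9.97, 9.69 and 9.59 in acute and 11.93, 11.35 and 10.99 in untreated macrophages. The recovered arrays lay below all others and the untreated arrays above all others, while tolerant and acute cells overlapped. Against untreated cells, Batf3 was at -3.57 ± 0.37 in recovered (11.9-fold lower, adjusted p = 2.14e-05), -1.80 ± 0.37 in tolerant (3.47-fold lower, adjusted p = 0.00499) and -1.67 ± 0.37 in acute cells (3.18-fold lower, adjusted p = 0.00488).

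Recovered cells were also below both other exposed groups in Batf3. The difference from tolerant cells was -1.78 ± 0.37 (3.43-fold lower, adjusted p = 0.00679), and that from acute cells -1.90 ± 0.37 (3.74-fold lower, adjusted p = 0.0333). The call against acute cells was lost without untreated replicate 2, acute replicates 1 or 2 or any recovered replicate, at -2.06 to -1.78 and adjusted p of 0.0564 to 0.126, and its adjusted p over all alternatives was 0.00207 to 0.126. Tolerant minus acute was -0.12 (95% interval -0.93 to 0.68), with tolerant replicate 3 well below the other tolerant arrays.

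Batf3 is a dendritic cell gene, so the markers of that cell type were set beside it. Of 8 dendritic cell markers, Xcr1, Clec9a, Itgae and Dpp4 were well above background on 0 arrays, Cd209a on 1 recovered array and Flt3 on 1 acute array, while Ccr7 was so on 1 recovered, 3 tolerant, 1 acute and 0 untreated arrays. Zbtb46 was well above background on all arrays, with a mean of 10.56 in recovered, 9.37 in tolerant, 10.53 in acute and 5.22 in untreated cells. The summed signal of the 8 markers was 1280 to 2120 on recovered, 650 to 869 on tolerant, 977 to 1970 on acute and 57 to 95 on untreated arrays. Cd79b, a B cell receptor chain, was highest and lowest in the same groups as Batf3, with a mean of 6.66 in recovered, 9.07 in tolerant, 9.43 in acute and 10.52 in untreated cells, while Ms4a1 was well above background on 0 arrays. Cd79b was singled out after its values were seen, and the summed signal of the 9 lymphocyte markers did not follow Batf3, at 5640 to 6570 on recovered, 4960 to 5910 on tolerant, 5910 to 6230 on acute and 6100 to 6800 on untreated arrays. The part of such cells in the Batf3 difference was not tested.

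**Figure D3:**
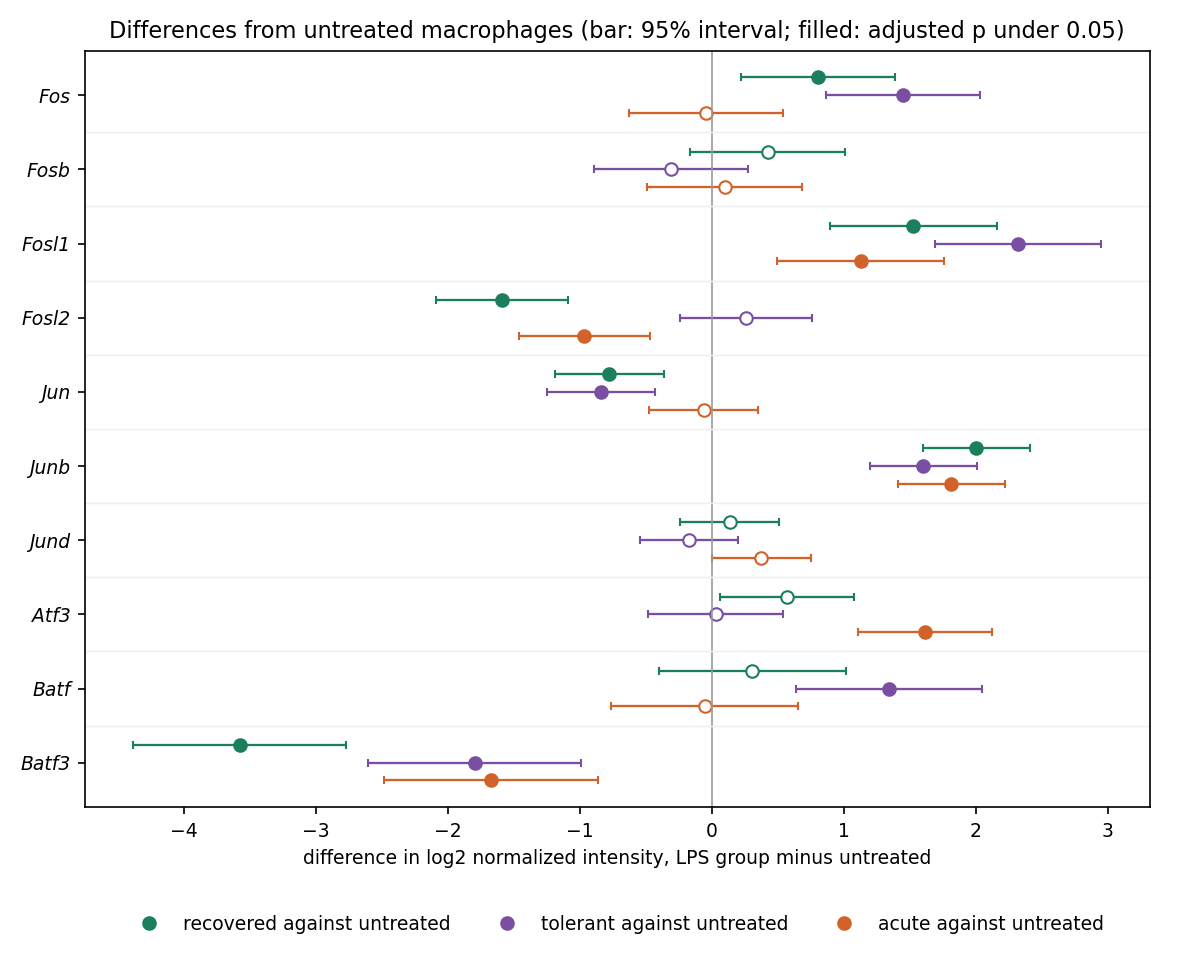
Points give the difference in log2 normalized intensity between each exposed group and untreated macrophages for the 10 factors, with 95% intervals as bars, filled where the adjusted p was under 0.05. Junb lies to the right and Batf3 to the left of 0 in all exposed groups, Fos and Batf rise most in tolerant cells, and Atf3 rises most in acute cells.

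Counted over the family, recovered against untreated cells gave 6 of 10 factors called, 3 higher (Fos, Fosl1, Junb) and 3 lower (Fosl2, Jun, Batf3), against 35.4% of all tested genes (18.5% higher and 16.9% lower). Groups did not overlap for 6 factors (those called other than Fos, and Atf3), beside 47.7% of all genes. Tolerant against untreated cells gave 6 called, 4 higher (Fos, Fosl1, Junb, Batf) and 2 lower (Jun, Batf3), against 19.9% of all genes (11.3% higher and 8.61% lower), and 6 did not overlap, beside 34.5% of all genes. Acute against untreated cells gave 5 called, 3 higher (Fosl1, Junb, Atf3) and 2 lower (Fosl2, Batf3), against 29.2% of all genes (14.3% higher and 14.9% lower), and 5 did not overlap, beside 38.7% of all genes. The median difference over the 10 factors was 0.37, 0.14 and 0.03 in recovered, tolerant and acute cells, beside medians of 0.06, -0.02 and 0.02 over all genes. These comparisons share the untreated arrays. With the experiment as a block, Atf3 was added in recovered cells (7 called, 52.6% of all genes) and Jund in acute cells (6 called, 43.5% of all genes), while 6 were called in tolerant cells (37.5% of all genes).

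The question of tolerance, a repeated LPS exposure set against a single one, is asked of end levels by tolerant against acute cells. There 7 of 10 factors were called, 4 higher (Fos, Fosl1, Fosl2, Batf) and 3 lower (Jun, Jund, Atf3), against 22.7% of all tested genes (10.6% of all genes lower), and 7 with the experiment as a block (44.5% of all genes). The same 7 had groups that did not overlap, as 38.5% of all genes did. The median over the family was -0.17, beside -0.05 over all genes. Fosl2 is counted by its brighter probe, and Jund by a call that 7 single arrays can undo. No group was exposed and rested without the last LPS, and no rest time is listed for untreated cells. What the last LPS alone added in restimulated cells, beside the first exposure and the time in culture, was therefore not tested.

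The question of the long against the short rest is asked by recovered against tolerant cells. Rest length cannot be told apart from the time since the first exposure. Fosl2, Batf and Batf3 were called, all lower, and 0 were higher, against 20.6% of all genes called (9.58% lower). Fosl2 is counted by its brighter probe, and its call was lost with the mean of both probes. The Batf call can be undone by leaving out any 1 of 7 arrays. Groups did not overlap for 9 of 10 factors (all but Jun), beside 44.0% of all genes. With the experiment as a block 6 factors were called, adding Fosb and Atf3 as higher and Fosl1 as lower, while the share of all genes called went to 45.1%. This comparison and the one of tolerant against acute cells share the tolerant arrays.

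Recovered against acute cells compares end levels after an earlier exposure, a long rest and a last exposure with those after a single exposure. Levels just before the last LPS were not measured, so a difference in the response itself was not tested. The comparison gave 2 calls, Atf3 and Batf3, both lower, against 2.05% of all genes (1.47% higher and 0.581% lower). Groups did not overlap for 6 of 10 factors, beside 19.7% of all genes. With the block Jun was added (3 called, 10.8% of all genes). As given above, 10 single arrays can undo the Atf3 call and 6 the Batf3 call.

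**Figure D4:**
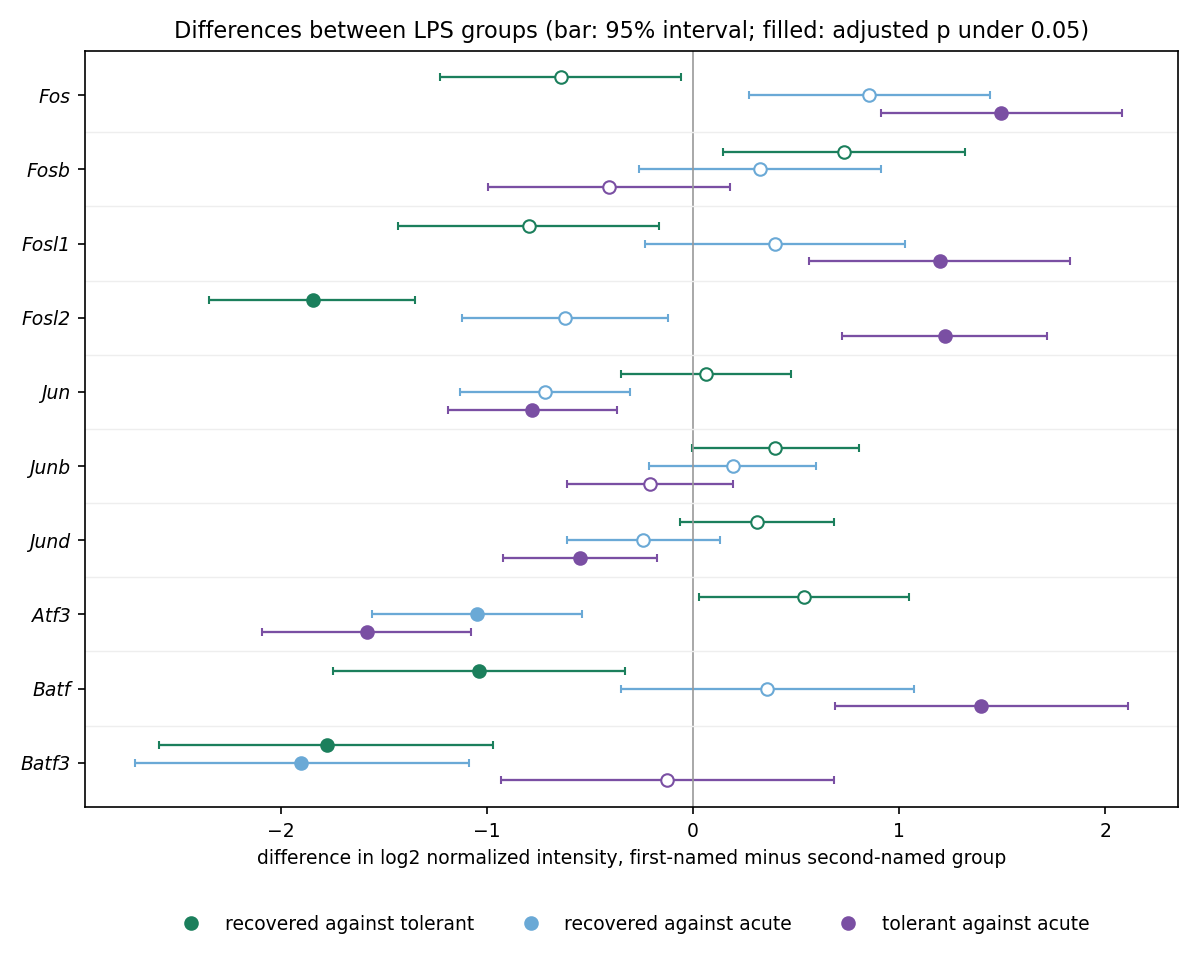
Points give differences in log2 normalized intensity between exposed groups for the 10 factors, with 95% intervals as bars, filled where the adjusted p was under 0.05. In tolerant against acute cells Fos, Fosl1, Fosl2 and Batf lie to the right and Atf3, Jun and Jund to the left of 0, and in recovered against tolerant cells Fosl2, Batf and Batf3 lie to the left.

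The bases upstream of the transcription start were read from RefSeq (GRCm38.p6), which gave 9 of the 10 genes, all but Fosl1. Windows of 250 bases before to 50 bases after the start were searched on both strands. TGACG, the core of the cyclic AMP response element that ATF and CREB proteins bind, was present in 5 of 9 windows (Fos, Fosb, Junb, Atf3, Batf), beside 21.0% of 27025 promoters. TGANNTCA, the octamer spacing of AP-1 and CREB sites, was in Jun and Jund (14.3% of promoters), and TATAAA in Fos and Junb (14.2%). TGANTCA, the AP-1 heptamer, was in 0 of 9 windows (7.93% of promoters), as was the NF-kB motif (1.62%), and the CArG box of serum response factor (1.57%). The interferon response motif was in Fosl2 (3.49%). The full palindromic cyclic AMP response element would match both TGACG and TGANNTCA, and no window of the family held it. Bases outside these windows were not searched, so a motif absent from a window, such as the CArG box in Fos, may lie further upstream. The motif letters were chosen after the sequences were seen, so these counts beside the shares of promoters are not a test of enrichment. The matches are a description of letters and not of binding.

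The 200 bases before the start are shown for the Fos and Batf genes, highest in tolerant cells, for Atf3, highest in acute cells, and for Junb and Jun. Capitals mark TGACG on either strand (CGTCA on the minus strand) and, in Jun, TGANNTCA. The windows are Fos, chr12:85473690-85473889 (plus strand), Batf, chr12:85686520-85686719 (plus), Atf3, chr1:191183334-191183533 (minus), Junb, chr8:84978749-84978948 (minus), and Jun, chr4:95052223-95052422 (minus).
Fos: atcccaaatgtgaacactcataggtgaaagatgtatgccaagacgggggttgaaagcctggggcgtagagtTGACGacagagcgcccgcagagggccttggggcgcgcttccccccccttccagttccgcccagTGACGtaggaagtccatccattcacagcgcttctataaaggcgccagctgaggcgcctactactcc
Batf: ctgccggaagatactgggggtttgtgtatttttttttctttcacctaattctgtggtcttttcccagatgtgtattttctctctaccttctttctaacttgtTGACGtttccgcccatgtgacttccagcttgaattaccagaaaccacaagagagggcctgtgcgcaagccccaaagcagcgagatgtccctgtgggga
Atf3: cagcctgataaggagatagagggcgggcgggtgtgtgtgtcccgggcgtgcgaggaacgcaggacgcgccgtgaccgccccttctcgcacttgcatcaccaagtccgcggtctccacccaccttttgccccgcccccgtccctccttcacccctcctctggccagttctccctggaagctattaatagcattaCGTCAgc
Junb: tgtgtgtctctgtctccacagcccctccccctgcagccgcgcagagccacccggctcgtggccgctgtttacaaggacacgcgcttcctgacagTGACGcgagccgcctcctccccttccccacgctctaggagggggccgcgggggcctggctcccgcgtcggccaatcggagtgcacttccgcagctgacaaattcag
Jun: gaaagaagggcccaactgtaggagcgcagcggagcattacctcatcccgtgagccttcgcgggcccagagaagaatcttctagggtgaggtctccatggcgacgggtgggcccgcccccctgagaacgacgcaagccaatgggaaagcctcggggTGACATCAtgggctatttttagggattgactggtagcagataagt

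In these windows the Fos promoter held TGACG at -129 to -125 and again at -66 to -62 from the start, with TATAAA at -33 to -28. Batf held it at -98 to -94, Junb at -106 to -102 and Atf3, on the minus strand, at -7 to -3. The octamer of Jun lay at -45 to -38. Of the genes shown, those with TGACG were Fos and Batf, highest in tolerant cells, Atf3, highest in acute cells, and Junb, higher in every exposed group. A link between motif and pattern was not tested.

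For each factor, the genes whose levels followed it most closely over the 12 arrays were found by Pearson's r among 12544 tested genes with a current symbol. This is a description, since the arrays share groups and experiments. Atf3 was followed by Gmeb2 (r = 0.988), Ifna2 (0.975) and Il33 (0.973), an alarmin cytokine whose mean was 4.61 in recovered, 2.20 in tolerant, 8.88 in acute and 1.79 in untreated cells. Il33 was well above background on 2 recovered, 0 tolerant, 3 acute and 0 untreated arrays, so its order between tolerant and untreated cells is not measured. Junb was followed by Setbp1 (0.985), which was well above background on 0 untreated arrays, Nfkb2 (0.985), the gene of an NF-kB subunit, and Cybb (0.984), a subunit of the phagocyte oxidase. Batf was followed by Lcn2 (0.931), which encodes an iron-withholding secreted protein with a mean of 11.59 in recovered, 14.09 in tolerant, 10.21 in acute and 9.64 in untreated cells, and then by Ubxn8 (0.904) and Polr3d (0.903).

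Fos was followed by Adam19 (0.933), Olfml3 (0.925) and Ldha (0.917), the lactate dehydrogenase gene with a mean of 16.69 in recovered, 17.21 in tolerant, 16.25 in acute and 16.19 in untreated cells. Fosl1 was followed by Rbm27 (0.946), Camp (0.929) and Orai2 (0.929), and the brighter Fosl2 probe by Grpr (0.965), Hadh (0.962) and Klf10 (0.96), a TGF-beta induced factor. Batf3 was followed by Asb2 (0.974), Scrn2 (0.973) and 0610040J01Rik (0.968). Jun was followed less closely by Vwf (0.896), Uhrf2 (0.883) and Syn1 (0.879). The genes for Jund were Rundc3b (0.927), Slc30a1 (0.92) and Mlxip (0.907), and those for Fosb 5033404E19Rik (0.958), Lmx1b (0.949) and Adrb3 (0.947). Of these genes, Grpr, 0610040J01Rik, Rundc3b and 5033404E19Rik were also well above background on 0 arrays of at least 1 group, and their r rests in part on such values.

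Other basic leucine zipper partners were read from a list of 21 genes, 20 of them tested. In this list 8 rose and 3 fell in recovered, 5 rose and 3 fell in tolerant and 6 rose and 2 fell in acute cells against untreated cells. The medians were 0.25, 0.09 and 0.0013, and 35.4%, 19.9% and 29.2% of all genes were called in these groups. Batf2, a BATF paralog induced by interferon, rose by 4.93 in recovered, 2.94 in tolerant and 5.20 in acute cells (adjusted p of 3.85e-08, 5.13e-06 and 3.05e-08). Maff, a small Maf protein, rose by 4.12, 3.86 and 4.50 in the same groups. Set against acute cells, in tolerant cells 1 rose and 5 fell (median -0.21), with Batf2 at -2.26, Mafk at -2.27 and Mafg at 0.92. Of all genes, 22.7% were called there. In recovered against tolerant cells 4 rose (7 with the block) and 1 fell (median 0.30), with Batf2 higher by 1.99, Mafk higher by 1.73 and Mafg at -0.90. Over all genes 20.6% were called (45.1% with the block), and the counts of this list were near those shares.

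The C/EBP family, other leucine zipper factors of myeloid cells, had 4 of 7 lower in recovered, 2 lower in tolerant and 2 lower in acute cells against untreated cells and 0 higher (medians -0.46, -0.24 and -0.33), beside 16.9%, 8.61% and 14.9% of all genes lower. With the block, Cebpd was called higher in recovered (0.65, adjusted p = 0.0173) and Cebpb in tolerant cells (0.69, adjusted p = 0.0276). Cebpa fell, with differences of -2.29 in recovered, -1.19 in tolerant and -3.12 in acute cells (adjusted p of 0.000189, 0.0221 and 2.18e-05). In tolerant against acute cells 3 rose and 0 fell (median 0.35), and in recovered against tolerant cells 0 rose and 3 fell (median -0.44). Of all genes, 22.7% and 20.6% were called in these comparisons. Ddit3, a stress-induced member, was 1.33 higher in tolerant than in acute cells (adjusted p = 0.0203).

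Of 22 MAP kinases and upstream kinases that control AP-1, 6 rose and 4 fell in recovered, 4 rose and 1 fell in tolerant and 5 rose and 4 fell in acute cells against untreated cells (medians 0.0069, 0.037 and -0.0022). The shares of all genes called were 35.4%, 19.9% and 29.2%, and the tolerant count was near its share. Mapkapk2, a kinase downstream of p38, rose by 2.67 in recovered, 1.38 in tolerant and 2.59 in acute cells (adjusted p of 3.73e-06, 0.00106 and 5.01e-06). Map3k1 fell, with differences of -2.22, -1.10 and -2.26 in the same groups. Map2k6, which activates p38, was not well above background on any recovered array and was at least 3.37-fold lower there than in untreated cells. The difference as measured was -3.63 (adjusted p = 1.95e-05). Set against acute cells, in tolerant cells 4 rose and 4 fell (8 and 5 with the block), beside 22.7% of all genes called (44.5% with the block). In recovered against tolerant cells 3 rose and 4 fell (6 and 7 with the block), beside 20.6% of all genes called (45.1% with the block).

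Of 10 genes for the ternary complex and serum response factors that control Fos and for the kinases that act on them, 4 rose and 3 fell in recovered, 1 rose and 0 fell in tolerant and 2 rose and 3 fell in acute cells against untreated cells. These counts stand beside 35.4%, 19.9% and 29.2% of all genes called. With the block the tolerant count was 4 higher and 1 lower, beside 37.5% of all genes. In tolerant against acute cells 5 rose and 1 fell, beside 22.7% of all genes called (median 0.52, beside -0.05 over all genes). Elk3, a ternary complex factor, exceeded acute cells by 1.78 in tolerant (adjusted p = 9.67e-05) and by 1.04 in recovered cells (adjusted p = 0.0232), and Mkl2, a cofactor of serum response factor, was 1.45 higher in tolerant than in acute cells (adjusted p = 0.000145). In recovered against tolerant cells 0 rose and 4 fell, among them Mkl2 (-1.11, adjusted p = 0.000904), beside 20.6% of all genes called.

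Of 18 other immediate early genes, 16 were tested. Against untreated cells 9 rose and 1 fell in recovered, 7 rose and 1 fell in tolerant and 9 rose and 1 fell in acute cells (medians 1.01, 0.60 and 1.05). The shares of all genes called were 35.4%, 19.9% and 29.2% in these groups. Dusp2, a MAP kinase phosphatase, rose by 4.42, 3.79 and 4.998 in these groups, and Egr2 fell, with differences of -2.60, -1.94 and -1.88. Set against acute cells, in tolerant cells 2 rose (Ier3 by 1.05 and Nr4a1 by 1.27) and 5 fell (9 with the block), among them Klf4 (-2.12, adjusted p = 0.000145). Beside these counts, 22.7% of all genes were called (44.5% with the block). In recovered against tolerant cells 4 rose and 0 fell (6 and 2 with the block), with Klf4 higher by 1.96. These counts were near the shares of all genes called, 20.6% and, with the block, 45.1%.

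The IRF partners of BATF proteins and related factors, 7 of 8 tested, had 5 higher and 1 lower in recovered, 2 higher and 0 lower in tolerant and 5 higher and 0 lower in acute cells against untreated cells (medians 1.39, 0.31 and 1.73). Beside these counts, 35.4%, 19.9% and 29.2% of all genes were called. Irf8, which pairs with BATF3, was lower in tolerant (-2.22, adjusted p = 4.71e-05) and in recovered (-1.43, adjusted p = 0.0101) than in acute cells. Irf1 was lower in tolerant than in acute cells (-2.13) and 2.08 higher in recovered than in tolerant cells (adjusted p of 1.34e-05 and 2.6e-05). In tolerant against acute cells 0 rose and 4 fell, beside 22.7% of all genes called. In recovered against tolerant cells 4 rose and 1 fell, beside 20.6% of all genes called. The gene that fell was Spib (-4.29, adjusted p = 0.00124), which was well above background on 1 of 3 recovered arrays.

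Among 19 genes that AP-1 is known to induce, 17 were tested. Against untreated cells 10 rose and 2 fell in recovered, 8 rose and 0 fell in tolerant and 10 rose and 2 fell in acute cells (medians 1.91, 1.08 and 2.11). Calls over all genes were 35.4%, 19.9% and 29.2% in these groups. Ptgs2, the inducible cyclooxygenase, rose by 8.35, 6.47 and 7.36 in these groups, and Il1b rose by 7.97, 7.98 and 6.32. Set against acute cells, in tolerant cells 2 rose, Il1b by 1.66 (adjusted p = 0.0102) and Vegfa by 1.93 (adjusted p = 0.000949), and 7 fell (median -1.08). In the same comparison 22.7% of all genes were called. Hbegf, an EGF receptor ligand, was lower (-3.01, adjusted p = 0.0031) and well above background on 2 of 3 tolerant arrays. In recovered against tolerant cells 5 rose (11 with the block) and 0 fell (1 with the block), beside 20.6% of all genes called (45.1% with the block). Among those that rose were Spp1 (1.93, adjusted p = 0.000401) and Mmp13 (2.04, adjusted p = 0.0286). Recovered cells differed from acute cells in Mmp9 (-2.56), Ccnd1 (higher by 1.25) and Vegfa (higher by 1.66). These were the 3 genes of the list called there (9 with the block), beside 2.05% of all genes (10.8% with the block).

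All 9 genes that ATF3 is known to repress in mouse macrophages were tested, and 9 of 9 rose in each exposed group against untreated cells. The shares of all genes called higher were 18.5% in recovered, 11.3% in tolerant and 14.3% in acute cells. The list was chosen with earlier results of these data known, so its counts are not a test of ATF3. Control of these genes by ATF3 was not tested. Il12b, not well above background on untreated arrays, was at least 311-fold higher in recovered, 142-fold higher in tolerant and 618-fold higher in acute cells. In tolerant against acute cells 0 rose and 6 fell (median -1.45), beside 10.6% of all genes lower. Among those that fell were Ifnb1 (-5.08, adjusted p = 0.000303) and Il6 (-2.27, adjusted p = 0.0242). In recovered against tolerant cells 7 rose and 0 fell (median 2.08), with Il6 higher by 2.34 (adjusted p = 0.0237). In recovered against acute cells 0 were called (3 with the block, median 0.07), beside 2.05% of all genes (10.8% with the block).

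Of the 29 calls of a factor in a comparison, 28 had the same direction on every slide that held both groups, the exception being Fos in recovered against untreated cells given above. The 75th percentile of log2 signal was 8.04 to 9.38 per array, 47.8% to 55% of spots were well above background, no spot was saturated, and arrays of a group correlated at r of 0.98 to 0.994 across tested genes. All 9 measured macrophage markers were well above background on every array. Of 8 neutrophil markers, Camp and S100a8 were highest in tolerant cells, as Fos, Fosl1 and Batf were. The means for S100a8 were 9.78 in recovered, 10.89 in tolerant, 9.07 in acute and 8.29 in untreated cells. Elane and Mpo went the other way and were lowest in tolerant cells. The means for Elane were 12.53 in recovered, 12.01 in tolerant, 12.31 in acute and 12.35 in untreated cells. The summed signal of the 8 on tolerant arrays overlapped that of every other group (6750 to 7390 on recovered, 4590 to 7720 on tolerant, 4760 to 6550 on acute and 4400 to 6690 on untreated arrays). Among markers of other cells, the summed signal of 5 erythroid and platelet markers, mostly Pf4, was 35300 to 51200 on recovered, 11700 to 25400 on tolerant, 8280 to 16600 on acute and 6220 to 13400 on untreated arrays. That of 5 mast cell and basophil markers, of which Hdc alone was well above background, was 2500 to 2850 on recovered, 339 to 462 on tolerant, 1940 to 2750 on acute and 22.3 to 31.4 on untreated arrays. That of 7 stromal markers was 542 to 859 on recovered, 528 to 622 on tolerant, 351 to 612 on acute and 146 to 216 on untreated arrays. The part of such cells in these results was not tested.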

How the data were processed

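The scanner files hold 1 spot intensity per feature, which the authors extracted with Agilent Feature Extraction 10.7.3.1, per the file headers, with probe positions on mm9. The deposited log2 values, which were made with limma per the submitters' processing notes, served as an alternative only. Processed intensities were taken to log2, and each array was set to the same 75th percentile (8.04 to 9.38 before). Control spots and 135 to 233 outlier spots per array were left out, spots of a probe were averaged, and the brightest probe stood for each gene. Genes detected above background by all 3 arrays of any group were tested (20469) with limma 3.58.1 in R 4.3.3, with 4 group means over 12 arrays and Benjamini-Hochberg adjustment over all of them. Sequences and figures used Python 3.11.15. The fit was tested on simulated data. The number of arrays limits the precision.

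The named genes were the 10 factors, up to 2 genes higher and 2 lower per list and comparison with the largest called differences, and the 3 most alike genes per factor. The factors, lists and tests were chosen with earlier results of these data known, and the motif letters after the sequences were seen. The design text calls the replicates independent experiments, and deviations from group means of arrays with the same number correlated at r of 0.276 to 0.775 (median 0.451, 18 pairs), against -0.654 to 0.338 (median -0.369, 36 pairs) for different numbers. The numbers were therefore treated as pairing the arrays in a fit with the replicate as a block, named above the experiment as a block. Arrays of equal number also shared a slide, except recovered replicate 1 on slide 2, and those numbered 3 were the later scan day. Experiment, slide and scan day cannot be told apart by this block. Other alternatives were quantile normalization, normexp background correction, the deposited values, other filters, a floor, the mean of all probes, other variance priors, the 2 groups alone, slide and scan day as blocks, and leaving out each array or the later scan day.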

Additional observations from a re-analysis of the deposited data

Results flagged for a closer look

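The Fosl2 probe at base 738 is not the one that stands for the gene in the comparisons, and it gave signal above untreated cells in every exposed group. It was well above background on all 9 exposed arrays and on 0 of 3 untreated arrays, at least 4.81-fold higher in recovered, 2.42-fold higher in tolerant and 4.41-fold higher in acute than in untreated macrophages. The brighter probe was lower in recovered and acute cells, and the cause of the difference was not tested.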

How the results depend on the processing

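Of the 29 calls of a factor in a comparison, 14 held under each of 27 alternatives (26 for Fosl1). With the replicate as a block, factors called were 7 in recovered, 6 in tolerant and 6 in acute against untreated cells, 7 in tolerant against acute cells, 6 in place of 3 in recovered against tolerant cells and 3 in recovered against acute cells. In recovered against tolerant cells the count was also 6 with slide as a block. It was 5 with scan day as a block, by the authors' values, and after normexp followed by quantile normalization. Over all alternatives, between 2578 and 9233 genes were called in this comparison. Whether the factors gained more calls than other genes under these fits was not tested. In recovered against acute cells the 2 calls became 0 with no filter on dim probes, 1 with a robust prior and 1 with the 2 groups alone, and 0 to 3 when single arrays were left out, with 3 without untreated replicate 3. The number of genes called was 7677 with the block (4067 without) for tolerant against untreated cells and 9114 (4639) for tolerant against acute cells. For recovered cells it was 9233 (4210) against tolerant and 2209 (420) against acute cells. The lowest numbers over all alternatives, against untreated cells, were 5851 in recovered, 2909 in tolerant and 4920 in acute cells. They were 3124 for tolerant against acute cells, and for recovered cells 2578 against tolerant and 25 against acute cells.

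Signs turned mainly for differences near 0 that were not called. The called exception was Fosl2, at 0.918 in recovered and 1.17 in acute against untreated cells by the mean of its probes. That mean rests in part on untreated values of the dimmer probe that were not well above background. Quantile normalization turned Jund in recovered (-0.289) and acute (-0.086) and Atf3 in tolerant cells (-0.188) against untreated cells, and with normexp these were -0.261, -0.0633 and -0.207. The median of all genes moved by -0.145 in recovered and -0.142 in acute cells under quantile normalization. The authors' values gave -0.344 for Jund in recovered, -0.154 for Atf3 in tolerant and 0.0121 for Fos in acute cells. Jun in recovered against tolerant cells was -0.0482 with normexp and quantile normalization, -0.0411 with normexp, -0.0616 by the authors' values and -0.0034 without recovered replicate 1. Without the later scan day, Batf in recovered (-0.306), Atf3 in tolerant (-0.145), Fos (0.346) and Jun (0.15) in acute against untreated cells and Batf3 in tolerant against acute cells (0.268) turned.

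Single arrays also turned signs of uncalled differences. Leaving out 1 array at a time, the ranges were -0.194 to 0.162 for Fos, -0.252 to 0.337 for Fosb, -0.178 to 0.127 for Jun and -0.307 to 0.157 for Batf in acute against untreated cells, -0.0525 to 0.54 for Batf in recovered against untreated cells and -0.417 to 0.347 for Batf3 in tolerant against acute cells. Fos in acute against untreated cells was 0.139 without untreated replicate 3 and 0.162 without acute replicate 3. Fosb there was -0.252 without untreated replicate 1. Jun there was 0.127 without untreated replicate 3 and 0.0323 without acute replicate 2, and Batf 0.157 without untreated replicate 1 and 0.121 without acute replicate 2. Atf3 in tolerant against untreated cells was -0.103 to -0.0128 without untreated replicate 3, tolerant replicate 1 (-0.0152) or tolerant replicate 3. Batf in recovered against untreated cells was -0.0525 without recovered replicate 3, and Batf3 in tolerant against acute cells 0.347 without tolerant replicate 3. The cause was not tested. Dim signal limits Fosl1 and the Fosl2 probe at base 738, which have only a bound in untreated cells.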
